A study of Mus musculus with 60 samples.

Results

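The genes described here are 33 genes of cholesterol and fatty acid synthesis and of sterol export, followed in CD8 T cells that lack the adaptor gene Sh2b3 and in wild-type cells before and after activation. They were taken by gene symbol from a named list, matched to Ensembl identifiers, and are 33 of the 55414 genes in the count table. By role they are 5 regulators (Srebf1, Srebf2, Scap, Insig1 and Insig2), 7 genes of the mevalonate steps (Acat2, Hmgcs1, Mvk, Pmvk, Mvd, Idi1 and Fdps) and 11 genes of the steps through squalene and lanosterol to cholesterol (Fdft1, Sqle, Lss, Cyp51, Tm7sf2, Msmo1, Nsdhl, Hsd17b7, Ebp, Sc5d and Dhcr7). The others are the sterol carrier Stard4, 6 fatty acid genes (Acly, Acaca, Fasn, Elovl6, Scd1 and Scd2) and 3 targets of the liver X receptors (Abca1, Abcg1 and Mylip). All 33 had a row in the table.

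Cells hold sterol synthesis to demand through the SREBP transcription factors, made from Srebf1 and Srebf2. When membrane sterol is low, SCAP carries the SREBP precursors out of the endoplasmic reticulum to be cleaved, and the INSIG proteins hold them back when sterol is high. Oxysterols act in the opposite sense through the liver X receptors (LXR), which switch on sterol export by ABCA1 and ABCG1 and, through the ubiquitin ligase MYLIP, removal of the LDL receptor. T cells that leave quiescence need new membrane and are known to raise SREBP-driven synthesis and to lower LXR signalling.

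Messenger RNA was sequenced in 60 libraries of naive CD8 T cells taken from NOD spleens by negative selection. All mice were of the diabetes-prone NOD strain and bore the OT-I transgene, whose T cell receptor recognises an ovalbumin peptide. Sh2b3-/- cells and Sh2b3+/+ (wild-type) cells each gave 11 libraries without stimulation (0 h), and 5 libraries each after 2, 6 and 24 h of stimulation with 10 µg/mL anti-CD3 bound to the plate and 5 µg/mL anti-CD28 in solution. Blocking anti-IL-2 (10 µg/mL) was added in 4 further 24 h libraries of each genotype. Whether the libraries of a group stem from separate mice or cultures is not stated in the labels. The p-values therefore refer to the spread among libraries, which may be technical.

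Library totals ran from 13987029 to 35476519 counts, with a median of 17994613. Levels are in CPM, counts scaled to a common library size with TMM factors, with the standard deviation between libraries as error. CPM does not correct for gene length, so levels are compared within a gene only. Sh2b3 was at 13.7 ± 3.21 CPM in Sh2b3-/- cells and 80.4 ± 8.03 CPM in wild-type cells at 0 h (SD, n = 11 each), and lower in Sh2b3-/- libraries at each later time too. The 8 markers of CD8 T cells were present in every group, with summed levels of 5614 to 6674 CPM at 0 h and 2196 to 3860 CPM after stimulation. Summed markers of other cells reached at most 77.2 CPM for B cells, 132 for NK cells, 79.3 for CD4 or regulatory T cells, 148 for erythroid cells, 18.4 for monocytes or macrophages, 10.4 for platelets and 3.93 for neutrophils in any library. The library numbers in the labels form 4 runs, called sets A to D here, whose origin the labels do not give. The 2 and 6 h libraries belong to set A, with 5 unstimulated libraries of each genotype. Set B has, per genotype, 2 libraries unstimulated and 2 at 24 h, while set C has 4 unstimulated and 3 at 24 h. All anti-IL-2 libraries make up set D, which contains nothing else, so the effects of the antibody and of the set cannot be told apart. In bulk RNA, fewer cells that express a gene and less RNA per cell cannot be told apart either.

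RefSeq promoter windows on mouse build GRCm38.p6, from 250 bases before to 50 bases after a start site, were at hand for 26 of the 33 genes, 34 windows in all. The genes without one were Fdps, Fdft1, Sqle, Stard4, Scd1, Scd2 and Abcg1. The motifs searched on both strands were the sterol regulatory element TCACNCCAC, the NF-Y box CCAAT (a site whose factor works beside SREBP at many sterol genes), the E-box CACGTG and the LXR element DR4, a direct repeat of AGGTCA with 4 bases between. No motif overlapped another in the windows shown. CCAAT was found in 22 of 34 member windows (64.7%), against 37.4% of the 32851 windows of the table. By gene it was found in 21 of the 26 members with a window, against 11096 of 27025 genes. It was present in all 9 squalene-to-cholesterol genes with a window and in 5 of 6 mevalonate genes. CACGTG lay in 7 member windows (20.6%), against 7.15% of all windows, which is 6 of the 26 genes against 2187 of 27025 genes, since the site counted in both overlapping Scap windows is the same. TCACNCCAC lay in 1 member window, that of Hmgcs1 (2.94%), against 1.24% of all windows. The exact DR4 repeat lay in 0 of 34, against 0.0152% of all windows. Only these exact letters were counted, so a sterol or LXR element with other letters would be missed.

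The 250 bases before the start are shown for the enzyme genes with the largest responses that had a window and for the export gene Abca1, so that promoters of genes that went up and down over 24 h can be set side by side. They run 5′ to 3′ along the gene, in GRCm38.p6, and capitals mark the motifs above.
Hmgcs1 promoter (chr13:119690101-119690350, plus strand): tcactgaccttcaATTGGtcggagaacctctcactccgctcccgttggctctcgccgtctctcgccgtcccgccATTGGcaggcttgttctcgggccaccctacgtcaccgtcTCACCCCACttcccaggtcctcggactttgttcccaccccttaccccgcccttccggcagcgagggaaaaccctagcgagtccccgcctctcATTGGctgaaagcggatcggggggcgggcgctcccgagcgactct
Idi1 promoter (chr13:8885356-8885605, plus strand): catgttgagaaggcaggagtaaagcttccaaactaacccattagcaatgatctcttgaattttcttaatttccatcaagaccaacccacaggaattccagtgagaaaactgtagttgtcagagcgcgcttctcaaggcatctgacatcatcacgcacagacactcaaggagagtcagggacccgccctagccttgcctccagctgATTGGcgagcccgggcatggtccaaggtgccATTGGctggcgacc
Cyp51 promoter (chr5:4104698-4104947, minus strand): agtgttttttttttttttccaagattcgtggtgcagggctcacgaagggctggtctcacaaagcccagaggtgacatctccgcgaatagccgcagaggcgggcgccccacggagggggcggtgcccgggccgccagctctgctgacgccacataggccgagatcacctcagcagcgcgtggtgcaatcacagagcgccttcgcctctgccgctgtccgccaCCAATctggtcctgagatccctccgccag
Mvk promoter (chr5:114444019-114444268, plus strand): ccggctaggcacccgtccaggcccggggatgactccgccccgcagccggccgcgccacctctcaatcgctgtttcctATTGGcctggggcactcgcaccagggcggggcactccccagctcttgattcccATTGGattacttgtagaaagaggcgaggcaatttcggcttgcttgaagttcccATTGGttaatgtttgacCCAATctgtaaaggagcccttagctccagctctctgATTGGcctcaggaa
Abca1 promoter (chr4:53159896-53160145, minus strand): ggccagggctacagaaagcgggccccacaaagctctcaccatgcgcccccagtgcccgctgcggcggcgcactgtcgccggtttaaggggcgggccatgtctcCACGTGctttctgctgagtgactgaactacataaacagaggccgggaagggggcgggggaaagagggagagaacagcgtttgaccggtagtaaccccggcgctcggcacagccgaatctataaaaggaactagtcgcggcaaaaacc

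The Hmgcs1 window holds the sterol regulatory element in the forward orientation and CCAAT boxes read on the opposite strand (ATTGG). Idi1, Cyp51 and Mvk hold CCAAT (Mvk 5 times) without an exact match to TCACNCCAC. Of the exact strings searched, Abca1 matched only the E-box, at 1 place. Mvk, which fell at 2 h, and Hmgcs1, which rose at 2 h, both carry several CCAAT boxes in this window.

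Most of the 33 genes changed after activation. By 24 h the synthesis enzymes were mostly higher than at 0 h and the LXR targets were lower, in both genotypes. In Sh2b3-/- cells 22 members were higher and 4 lower at 24 h than at 0 h, where 30.1% of 14726 genes were called higher and 29.8% lower (60% in all). In wild-type cells 20 were higher and 8 lower, where 27.8% of 14431 genes were called higher and 31.6% lower (59.4% in all). The median member changed by 0.62 log2 units in Sh2b3-/- cells and 0.68 in wild-type cells, against −0.05 and −0.09 for all genes tested in the same fits. Calls are at an adjusted p under 0.05 in edgeR's quasi-likelihood test with Benjamini-Hochberg adjustment over all genes, and changes are log2 with their standard error.

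The first hours were mixed. At 2 h 15 members were higher and 9 lower than at 0 h in Sh2b3-/- cells (23.9% and 24.5% of all genes, 48.4% in all), and 9 were higher and 11 lower in wild-type cells (26.4% and 27.2%, 53.6% in all). At 6 h the counts were 13 higher and 9 lower in both genotypes, against 22.8% and 19.8% of all genes in Sh2b3-/- cells (42.6% in all) and 24.9% and 24.1% in wild-type cells (49% in all). From 2 to 6 h 8 members went up and 8 down in Sh2b3-/- cells (17% and 13.8% of all genes, 30.8% in all) and 10 up and 9 down in wild-type cells (18.8% and 18.5%, 37.4% in all). With library numbers 10 apart as a block, 11 went up and 13 down from 2 to 6 h in Sh2b3-/- cells (46.6% of all genes called). The 20 of 33 called in wild-type cells at 2 h is a share near that of all genes. Between 6 and 24 h the movement was mostly upward, with 20 members higher and 3 lower at 24 h in Sh2b3-/- cells (17% and 16.2% of all genes, 33.2% in all) and 16 higher and 2 lower in wild-type cells (14.8% and 17.5%, 32.3% in all). The comparisons with 0 h share their 0 h libraries. No library set holds both 6 and 24 h, so those times were compared through the 0 h libraries of their sets. Sh2b3-/- replicate 10 at 0 h and replicate 3 at 2 and 6 h stood apart from their groups in earlier results of these data, and without them 15, 13 and 23 members were higher and 8, 7 and 5 lower than at 0 h in Sh2b3-/- cells after 2, 6 and 24 h.

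**Figure D1:**
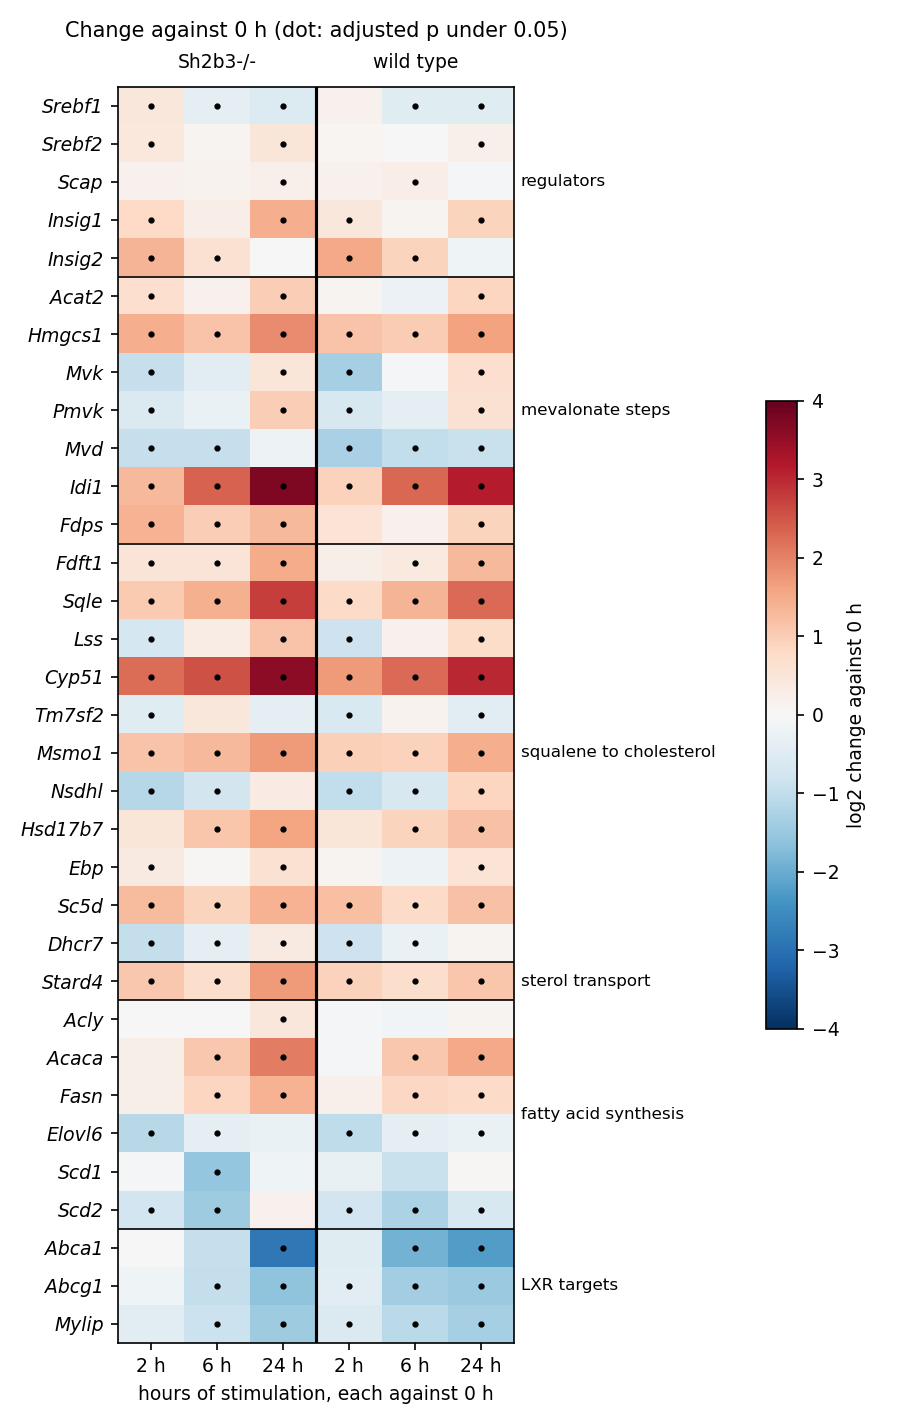
Log2 change of each of the 33 genes at 2, 6 and 24 h against 0 h (colour, columns), in Sh2b3-/- cells and in wild-type cells, with genes in rows by role; a dot marks an adjusted p under 0.05. Cyp51, Idi1, Sqle and Hmgcs1 are red at every time in both genotypes, Mvk, Mvd, Nsdhl and Dhcr7 are blue at 2 h, and the 3 LXR targets are blue at 24 h.

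Among the mevalonate genes the largest rise was that of Idi1 (ENSMUSG00000058258), the isopentenyl diphosphate isomerase. The Sh2b3-/- libraries held 2.95 to 7.32 CPM (median 5.15) unstimulated, then 15.2, 13.9, 22.2, 14.8 and 4.80 CPM after 2 h, 13.6, 27.4, 55.2, 30.4 and 15.8 CPM after 6 h and 66.6, 40.6, 46.3, 72.6 and 53.1 CPM after 24 h. Wild-type libraries had 4.06 to 9.23 CPM (median 6.02) unstimulated, then 12.8, 11.3, 11.7, 15.5 and 11 CPM after 2 h, 22.5, 23.9, 41.8, 39.6 and 28.7 CPM after 6 h and 42, 45.1, 38.9, 73.3 and 69.6 CPM after 24 h. Every 24 h library of both genotypes lay above every 0 h library, as did every 6 h library, while Sh2b3-/- replicate 5 at 2 h was within the 0 h range. The changes at 2, 6 and 24 h were 1.31, 2.37 and 3.73 ± 0.34 (SE) in Sh2b3-/- cells and 0.92, 2.28 and 3.15 ± 0.17 in wild-type cells (edgeR adjusted p at 24 h = 1.5e-09 and 4.8e-17).

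Hmgcs1 (ENSMUSG00000093930), the HMG-CoA synthase whose promoter holds the sterol regulatory element above, rose early. Levels in Sh2b3-/- cells were 23.7 to 49.3 CPM (median 33.5) unstimulated, then 83.8, 94.3, 117, 86.7 and 68 CPM after 2 h, 67.1, 60.2, 104, 66.6 and 54.2 CPM after 6 h and 128, 85, 132, 167 and 128 CPM after 24 h. The wild-type values were 26.8 to 59.3 CPM (median 34.8) unstimulated, then 67.7, 75.6, 66, 75.6 and 78.6 CPM after 2 h, 70.4, 65.1, 61.8, 62.6 and 67 CPM after 6 h and 121, 102, 130.1, 147 and 153 CPM after 24 h. All libraries at 2 h were above all 0 h libraries of their genotype, and the 6 h level was not called different from that at 2 h (6 h against 2 h −0.30 ± 0.16 in Sh2b3-/- cells and −0.12 ± 0.11 in wild-type cells). With library numbers as a block, the Sh2b3-/- libraries were called lower at 6 h than at 2 h (−0.31 ± 0.08, edgeR adjusted p = 0.0081). At 24 h it had risen by 1.89 ± 0.15 log2 units over 0 h in Sh2b3-/- cells and 1.62 ± 0.10 in wild-type cells (edgeR adjusted p = 5.2e-11 and 1.4e-15).

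Mvk (ENSMUSG00000041939), the mevalonate kinase, fell before it rose. Mutant (Sh2b3-/-) libraries had 9.42 to 13.5 CPM (median 11.5) unstimulated, then 6.01, 5.89, 6.86, 6.85 and 5.13 CPM after 2 h, 9.29, 8.18, 8.51, 10.2 and 5.25 CPM after 6 h and 11.3, 12.5, 16.7, 16.9 and 18.7 CPM after 24 h. Wild-type cells had 6.84 to 13.5 CPM (median 9.99) unstimulated, then 2.32, 3.91, 2.95, 4.04 and 4.68 CPM after 2 h, 10.5, 8.97, 9.21, 6.46 and 5.84 CPM after 6 h and 18.7, 13.1, 20.9, 16.4 and 21 CPM after 24 h. All 2 h libraries were below all 0 h libraries of their genotype. The change at 2 h was −0.92 ± 0.18 in Sh2b3-/- cells and −1.32 ± 0.20 in wild-type cells (edgeR adjusted p = 0.00011 and 8.6e-07), and at 24 h 0.50 ± 0.17 and 0.68 ± 0.18 (adjusted p = 0.013 and 0.0012). The call at 24 h in Sh2b3-/- cells was absent in set C alone (0.20 ± 0.20, adjusted p = 0.43).

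The next steps took different courses. Pmvk, the phosphomevalonate kinase, also fell at 2 h and was higher at 24 h, with changes of −0.59 and 0.995 in Sh2b3-/- cells and −0.64 and 0.62 in wild-type cells. The 6 h values were not called. Mvd, the decarboxylase, stayed below its 0 h level, at −0.93, −0.93 and −0.21 in Sh2b3-/- cells and −1.28, −0.99 and −0.88 in wild-type cells, called at all 3 times except 24 h in Sh2b3-/- cells (adjusted p = 0.19, edgeR). Acat2, the acetyl-CoA acetyltransferase at the entry of the pathway, was higher at 24 h in both genotypes, by 0.98 ± 0.15 and 0.85 ± 0.14, and was called at 2 h in Sh2b3-/- cells but not in wild-type cells (0.67 in Sh2b3-/- cells, 0.11 in wild-type cells, difference 0.49 ± 0.18, adjusted p = 0.64).

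Fdps, the farnesyl diphosphate synthase, was called higher at 24 h in both genotypes (1.29 ± 0.36 in Sh2b3-/- cells and 0.88 ± 0.35 in wild-type cells), from counts of only 9 to 119 per library. The call in Sh2b3-/- cells was absent in set B alone and in set C alone, and that in wild-type cells in set B alone (0.14 ± 0.51). Fdps and Acat2 have near-identical copies in the mouse genome that can share reads with them, so their values are uncertain.

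Of the genes from squalene to cholesterol, Cyp51 (ENSMUSG00000001467), the lanosterol demethylase, had the largest rise. Cyp51 in Sh2b3-/- cells was 7.82 to 16.7 CPM (median 11.1) unstimulated, then 49.8, 54.9, 98.9, 52.7 and 29.6 CPM after 2 h, 44.3, 73.9, 111, 73.1 and 36.9 CPM after 6 h and 141, 97.7, 149, 179.7 and 128 CPM after 24 h. In wild-type libraries Cyp51 had 13.1 to 21.9 CPM (median 15.3) unstimulated, then 51.1, 44.1, 44.4, 50.7 and 48.6 CPM after 2 h, 68.4, 53.1, 72.6, 73.6 and 77.7 CPM after 6 h and 121, 133, 114, 155 and 169.6 CPM after 24 h. Every stimulated library was above every 0 h library of its genotype, and every 24 h library of wild type was above every 6 h library. The changes at 2, 6 and 24 h were 2.24 ± 0.30, 2.55 ± 0.30 and 3.58 ± 0.29 in Sh2b3-/- cells and 1.71 ± 0.10, 2.28 ± 0.10 and 3.02 ± 0.09 in wild-type cells (edgeR adjusted p at 24 h = 2.6e-10 and 1.7e-23).

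Sqle (ENSMUSG00000022351), the squalene monooxygenase and a rate-limiting step after HMG-CoA reductase, rose at every time. Per Sh2b3-/- library there were 8.40 to 15.9 CPM (median 12.3) unstimulated, then 26.6, 25.2, 51.5, 24.7 and 15.7 CPM after 2 h, 19.8, 43.7, 59.1, 36.3 and 18.2 CPM after 6 h and 64.4, 50.4, 72.3, 107 and 73.4 CPM after 24 h. The wild-type libraries held 10.6 to 16.4 CPM (median 14.8) unstimulated, then 32.1, 25.9, 20.9, 30.4 and 20.9 CPM after 2 h, 37.8, 31.1, 44.1, 40.8 and 39.4 CPM after 6 h and 49.7, 55.6, 49.7, 84.9 and 88.4 CPM after 24 h. Every stimulated wild-type library lay above the 0 h range, whereas Sh2b3-/- replicate 5 at 2 h, at 15.7 CPM, was within it. Its changes were 1.06, 1.42 and 2.77 in Sh2b3-/- cells and 0.76, 1.37 and 2.28 in wild-type cells, with adjusted p = 1.2e-08 and 9.2e-18 at 24 h (edgeR).

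The other sterol genes split at 2 h. Sc5d, the lathosterol desaturase, and Msmo1, the methylsterol monooxygenase, rose at 2, 6 and 24 h in both genotypes, Sc5d by 1.28, 0.90 and 1.38 in Sh2b3-/- cells and 1.19, 0.76 and 1.18 in wild-type cells and Msmo1 by 1.15, 1.28 and 1.69 in Sh2b3-/- cells and 0.95, 0.93 and 1.46 in wild-type cells. Fdft1, the squalene synthase, and Hsd17b7, a 3-ketosteroid reductase, were also called higher at 6 and 24 h in both, reaching 1.49 and 1.59 at 24 h in Sh2b3-/- cells and 1.30 and 1.16 in wild-type cells. Lss, the lanosterol synthase, Nsdhl, the sterol dehydrogenase, Dhcr7, which reduces the last intermediate of one branch to cholesterol, and Tm7sf2, a sterol reductase, were called lower at 2 h in both genotypes.

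Lss then rose above 0 h, by 1.15 ± 0.16 at 24 h in Sh2b3-/- cells and 0.73 ± 0.14 in wild-type cells. Nsdhl, at 8.45 ± 0.661 CPM at 2 h in Sh2b3-/- cells and 9.62 ± 1.72 CPM in wild-type cells, was still lower at 6 h and was called higher at 24 h in wild-type cells (0.85) but not in Sh2b3-/- cells (0.34, edgeR adjusted p = 0.0524). That difference between genotypes did not pass its own test (−0.45 ± 0.18, adjusted p = 0.3). Ebp, the sterol isomerase, was higher at 24 h in both (0.62 and 0.54). Stard4, which carries sterol between membranes, rose at every time in both, by 1.07, 0.69 and 1.69 in Sh2b3-/- cells and 0.93, 0.71 and 1.12 in wild-type cells.

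The regulators changed at different times. Insig2 was highest at 2 h, at 34.4, 27.9, 34.3, 30.5 and 32.9 CPM in Sh2b3-/- cells and 29, 29.8, 30.5, 33 and 29.6 CPM in wild-type cells, and at 24 h was back at 14.2 ± 1.87 CPM and 14.4 ± 4.18 CPM (SD, n = 5 each), close to its 0 h level. All 2 h values lay above the 0 h ranges of 10.9 to 18.2 CPM (median 13.9) in Sh2b3-/- cells and 9.47 to 17.6 CPM (median 14.3) in wild-type cells. The change at 2 h was 1.36 ± 0.14 in Sh2b3-/- cells and 1.52 ± 0.15 in wild-type cells (edgeR adjusted p = 3.1e-09 and 1.7e-10).

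Insig1, itself an SREBP target, was higher at 2 h and again at 24 h, and not called at 6 h. Its changes were 0.79, 0.28 and 1.46 in Sh2b3-/- cells and 0.46, 0.12 and 0.91 in wild-type cells. Srebf2 rose modestly at 24 h in both genotypes (0.48 and 0.21), and at 2 h was called in Sh2b3-/- cells (0.42) but not in wild-type cells (0.09); the difference was not called (0.37 ± 0.10, adjusted p = 0.43, edgeR). At 2 h Srebf1 was at 238, 255, 254, 238 and 256 CPM in Sh2b3-/- cells, all above the 0 h range of 144 to 201 CPM (median 174), and was called higher (0.45 ± 0.09, adjusted p = 0.00024). In wild-type cells it was at 197, 203, 194, 226 and 242 CPM, overlapping the 0 h range of 154 to 211 CPM (median 175), and was not called (0.17 ± 0.08, edgeR adjusted p = 0.076; difference between genotypes 0.23 ± 0.11, adjusted p = 0.78). It was then lower at 6 and 24 h in both genotypes, with changes of −0.35 and −0.54 in Sh2b3-/- cells and −0.48 and −0.50 in wild-type cells. Scap, the escort protein, moved by no more than 0.28 at any time in either genotype, and was called higher at 6 h in wild-type cells. Its 2 h change in Sh2b3-/- cells was called with library numbers as a block (0.16 ± 0.07, edgeR adjusted p = 0.044).

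The fatty acid genes did not move as a block. Acaca, the acetyl-CoA carboxylase that commits carbon to fatty acids, and Fasn, the fatty acid synthase, were not called at 2 h and rose at 6 and 24 h. With library numbers as a block both were called higher at 2 h in Sh2b3-/- cells, Acaca at 0.27 ± 0.10 and Fasn at 0.21 ± 0.09 (edgeR adjusted p = 0.026 and 0.046). Acaca changed by 1.09 ± 0.19 at 6 h and 2.05 ± 0.18 at 24 h in Sh2b3-/- cells, and by 1.07 ± 0.14 and 1.53 ± 0.13 in wild-type cells. Fasn changed by 0.87 ± 0.18 and 1.38 ± 0.18 in Sh2b3-/- cells and by 0.84 ± 0.12 and 0.76 ± 0.12 in wild-type cells. The size at 24 h depended on the library set. In wild-type cells the change of Fasn was 1.44 ± 0.10 in set B alone and 0.43 ± 0.08 in set C alone, and that of Acaca 2.21 ± 0.13 and 1.20 ± 0.14. For Sh2b3-/- cells the corresponding values were 1.65 ± 0.22 and 1.21 ± 0.14 for Fasn.

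Acly, the ATP citrate lyase that supplies cytosolic acetyl-CoA, was higher at 24 h in Sh2b3-/- cells (0.45 ± 0.08) and not called in wild-type cells (0.10 ± 0.07); the difference was 0.25 ± 0.09 (edgeR adjusted p = 0.27). The chain elongase Elovl6 and the desaturase Scd2 fell at 2 h, Elovl6 with changes of −1.12 in Sh2b3-/- cells and −1.02 in wild-type cells and Scd2 with −0.76 in both genotypes. Scd2 was lowest at 6 h, at 46.9, 25.5, 26.4, 36.9 and 32.9 CPM in Sh2b3-/- cells and 47.2, 41.9, 31.5, 33.5 and 39.5 CPM in wild-type cells, all below the 0 h ranges of 67.8 to 124 CPM (median 94.6) and 67.5 to 122 CPM (median 110.2). At 24 h Scd2 was not called in Sh2b3-/- cells (0.18 ± 0.20) and was lower in wild-type cells (−0.63 ± 0.13), a call absent in set B alone (−0.23 ± 0.10). Scd1 had 0 to 146 counts per library, too few to follow.

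All 3 LXR targets were lower at 24 h than at 0 h in both genotypes. Abca1 (ENSMUSG00000015243) exports cholesterol and phospholipid to lipid-poor apolipoproteins. Among Sh2b3-/- libraries there were 21.8 to 51.8 CPM (median 31.9) unstimulated, then 38.9, 16.4, 17.2, 36.7 and 64.2 CPM after 2 h, 16.1, 8.02, 6.37, 18.1 and 39.8 CPM after 6 h and 2.06, 2.24, 5.07, 7.43 and 5.46 CPM after 24 h. Wild-type libraries had 13 to 35.7 CPM (median 26.4) unstimulated, then 21.1, 21, 21.2, 16.1 and 23.9 CPM after 2 h, 9.69, 10.1, 5.55, 6.28 and 6.60 CPM after 6 h and 9.86, 3.91, 2.79, 1.87 and 3.02 CPM after 24 h. At 24 h every library of both genotypes was below every 0 h library. At 6 h all wild-type libraries were below the 0 h range, while Sh2b3-/- libraries overlapped it through replicate 5. The changes at 2, 6 and 24 h were −0.01, −0.94 and −2.87 in Sh2b3-/- cells, called only at 24 h (edgeR adjusted p = 1.1e-05), and −0.48, −1.88 and −2.23 in wild-type cells, called at 6 and 24 h (adjusted p = 4.7e-07 and 1.8e-08).

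Abcg1 (ENSMUSG00000024030), which exports sterol to high-density lipoprotein, was called lower from 6 h in Sh2b3-/- cells and from 2 h in wild-type cells. Sh2b3-/- cells gave 130.4 to 194 CPM (median 161) unstimulated, then 158, 141, 105, 142 and 212 CPM after 2 h, 93.1, 65.9, 46.7, 76.1 and 143 CPM after 6 h and 37.3, 52.2, 68.6, 33.3 and 50.7 CPM after 24 h. The wild-type values ran over 124 to 178 CPM (median 143) unstimulated, then 117, 118, 112, 109 and 161 CPM after 2 h, 58.9, 63.1, 57.8, 63.5 and 61 CPM after 6 h and 52.9, 62.2, 61.7, 32.4 and 35.7 CPM after 24 h. All wild-type libraries at 6 h and all libraries at 24 h were below the 0 h ranges, and at 6 h only Sh2b3-/- replicate 5 was inside. It changed by −1.61 ± 0.22 at 24 h in Sh2b3-/- cells and −1.49 ± 0.10 in wild-type cells (edgeR adjusted p = 7.3e-07 and 2.2e-14).

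Mylip (ENSMUSG00000038175), the ligase that marks the LDL receptor for degradation, showed the same calls. Values in Sh2b3-/- cells were 74.8 to 114 CPM (median 91.9) unstimulated, then 74.1, 76.4, 73.1, 70.3 and 98.3 CPM after 2 h, 72, 44.3, 38.9, 48.3 and 75.5 CPM after 6 h and 24.9, 52.4, 30.4, 16.3 and 26.3 CPM after 24 h. In the wild-type libraries it was 73.5 to 105 CPM (median 84.3) unstimulated, then 60.6, 57, 64.2, 56.9 and 80.7 CPM after 2 h, 48, 51.5, 35.8, 41.5 and 43.5 CPM after 6 h and 46, 42.2, 44.4, 19.2 and 14.6 CPM after 24 h. All 24 h libraries were below all 0 h libraries of their genotype. The changes were −0.42, −0.86 and −1.43 in Sh2b3-/- cells and −0.57, −1.07 and −1.32 in wild-type cells at 2, 6 and 24 h, with adjusted p = 2.3e-07 and 1.6e-08 at 24 h (edgeR). The 2 h change in Sh2b3-/- cells was called with library numbers as a block (−0.43 ± 0.08, adjusted p = 0.00021). The 24 h wild-type libraries differed by library set, with 42.2 to 46.0 CPM in set C and 14.6 to 19.2 CPM in set B.

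**Figure D2:**
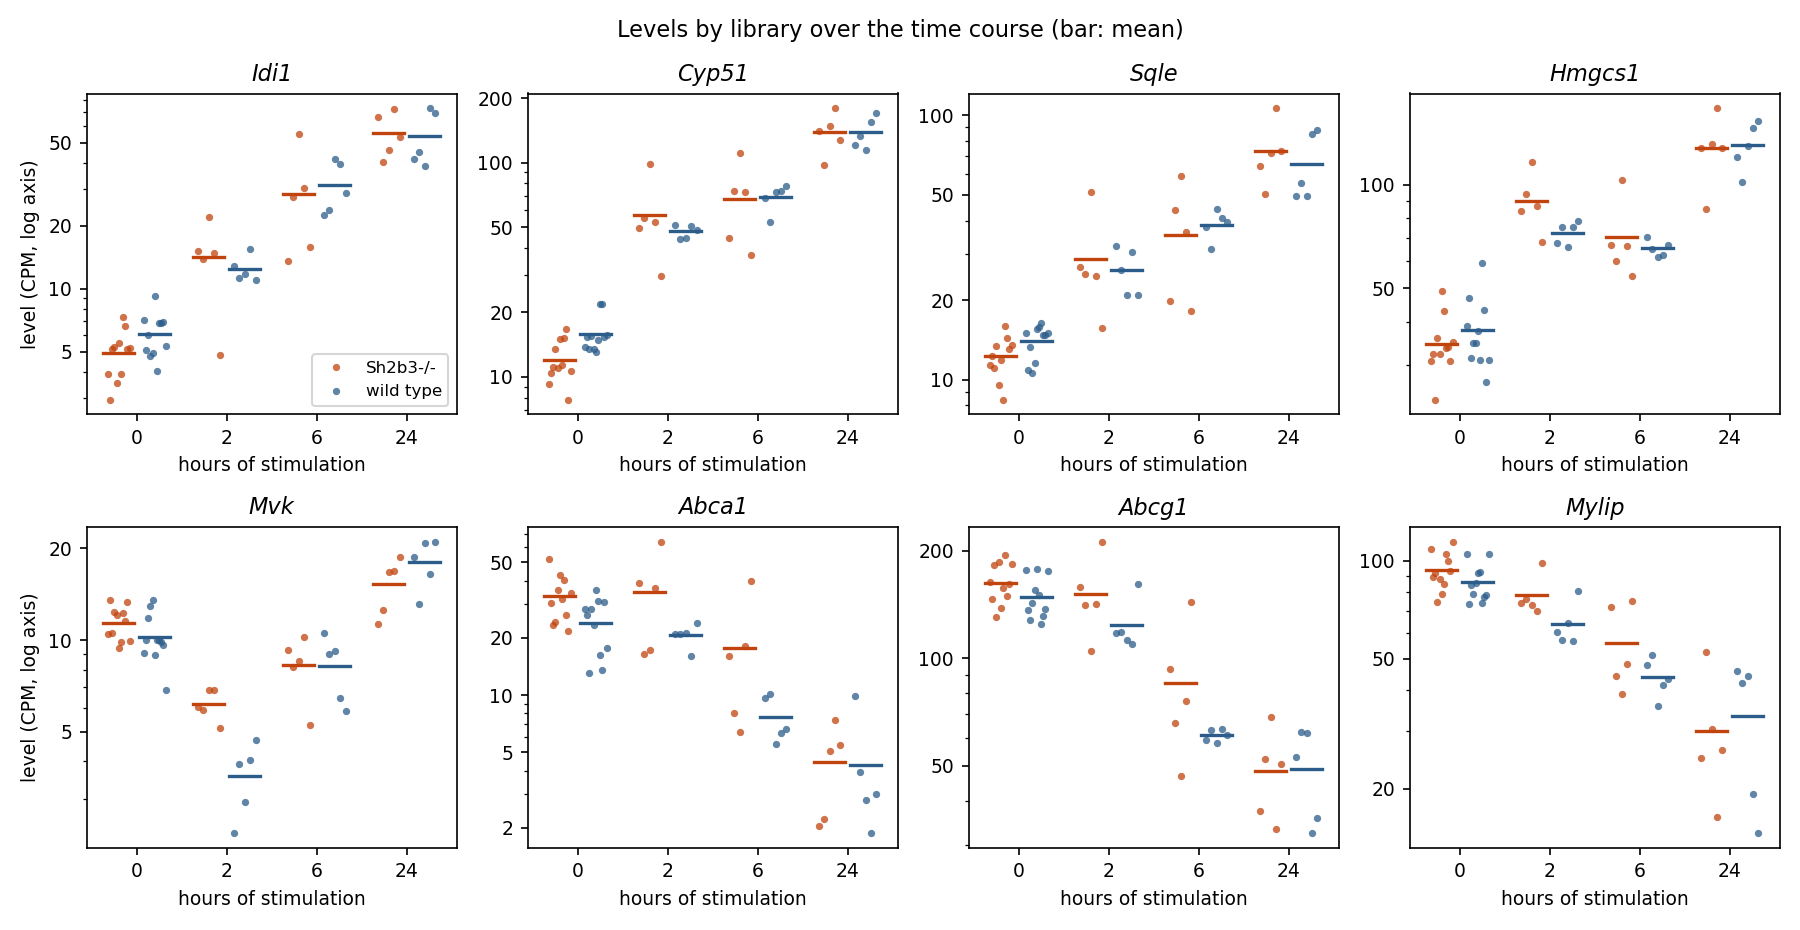
CPM (log axis) of Idi1, Cyp51, Sqle, Hmgcs1, Mvk, Abca1, Abcg1 and Mylip at 0, 2, 6 and 24 h, with Sh2b3-/- libraries left of wild-type libraries; each point is a library and each bar a mean. Idi1, Cyp51 and Sqle climb at each time, Mvk dips at 2 h, the LXR targets decline, and the points of Sh2b3-/- libraries at 2 and 6 h are more spread than those of wild type for Cyp51, Sqle and Abca1.

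A further 54 genes of sterol uptake, fatty acid handling and LXR signalling were listed and 48 were tested over time. At 24 h against 0 h 21 were higher and 17 lower in Sh2b3-/- cells, where 30.1% and 29.8% of all genes were called. In wild-type cells 20 were higher and 21 lower, against 27.8% and 31.6% of all genes. By size of change at 24 h the first 4 in both genotypes were the same genes. The fatty acid desaturase gene Fads2 rose by 5.89 ± 0.96 in Sh2b3-/- cells and 4.05 ± 0.74 in wild-type cells (at 0 h it averaged 0.284 ± 0.332 CPM and 0.280 ± 0.280 CPM, with some libraries at 0 counts), and Tmem97, a sterol-regulated membrane protein, by 3.83 ± 0.27 and 3.20 ± 0.16. Arl4c, an LXR-responsive small GTPase, changed by −3.12 ± 0.18 in Sh2b3-/- cells and −3.08 ± 0.16 in wild-type cells, and the mitochondrial carboxylase gene Acacb by −2.73 ± 0.50 and −3.30 ± 0.66. At 2 h the sterol sulfotransferase gene Sult2b1 had risen by 2.60 ± 0.31 in Sh2b3-/- cells and 2.55 ± 0.22 in wild-type cells, and Acsl3, an acyl-CoA synthetase, by 2.78 ± 0.23 and 2.22 ± 0.20. The other two of the first 4 at 2 h were falls, Arl4c at −2.33 ± 0.18 in Sh2b3-/- cells and −2.60 ± 0.16 in wild-type cells and the cholesterol acyltransferase gene Soat2 at −2.95 ± 0.92 and −2.56 ± 0.85, the last from at most 19 counts per library at 2 h. At 6 h they were Soat2 (−3.24 in Sh2b3-/- cells and −2.69 in wild-type cells), Arl4c (−2.55 and −2.78), Sult2b1 (2.71 and 2.56) and Tmem97 (2.11 and 2.23).

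No member was called between genotypes by edgeR in the 5 comparisons (0, 2, 6 and 24 h, then anti-IL-2), where 0.633%, 0.0647%, 0.0306%, 0.372% and 0.35% of all genes were called. At an unadjusted p under 0.05 there were 10, 8, 1, 4 and 2 members, and the DESeq2 Wald test called 1, 1, 0, 1 and 0. Shares of all genes for these kinds of count are not given, here or below, so no excess can be read from them. All 33 were tested except Scd1 at 6 h. None of the 54 further genes was called in any of the 5 comparisons either, with 5, 9, 4, 5 and 2 at an unadjusted p under 0.05.

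At 0 h 24 of the 33 members were below 0 in Sh2b3-/- cells relative to wild-type cells, among them 6 of 7 mevalonate genes and 10 of 11 sterol genes, and the median member was −0.09 (0.00 over all genes). Cyp51 was at 7.82 to 16.7 CPM (median 11.1) in Sh2b3-/- libraries and 13.1 to 21.9 CPM (median 15.3) in wild-type libraries, ranges that overlap, with a difference of −0.38 ± 0.11 (edgeR adjusted p = 0.11). DESeq2 called it (−0.38 ± 0.11, adjusted p = 0.0473). The 3 LXR targets were all above 0, Abca1 at 0.48 ± 0.18, which was called in set B alone (1.34 ± 0.22, adjusted p = 0.013).

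At 2 h 26 members were above 0, including all 5 regulators and all 7 mevalonate genes, and the median member was 0.13 (0.01 over all genes). Mvk was at 6.01, 5.89, 6.86, 6.85 and 5.13 CPM in Sh2b3-/- cells and 2.32, 3.91, 2.95, 4.04 and 4.68 CPM in wild-type cells, so that the groups did not overlap. Its difference of 0.77 ± 0.21 had an adjusted p of 0.21 by edgeR and 0.039 by DESeq2. Dhcr7 was at 17.8, 17.9, 13.3, 18.7 and 14.9 CPM in Sh2b3-/- cells and 19.1, 23.6, 21, 20.1 and 20.3 CPM in wild-type cells, again without overlap (−0.34 ± 0.12, edgeR adjusted p = 0.26). These 2 were the only members whose groups did not overlap at 2 h, and Dhcr7 was singled out after its values were seen. How many of all genes had groups without overlap at 2 h was not computed.

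At 6 h the members lay around 0 (16 above, 16 below, median 0.00), with all 3 LXR targets above 0, of which Abca1 was at 1.19 ± 0.43 without a call (adjusted p = 0.8). At 24 h the 6 fatty acid genes were all above 0, with a median of 0.44, while the mevalonate and sterol genes were centred on 0 (medians −0.04 and −0.01). Fasn was at 660.4, 437, 589, 814 and 520.4 CPM in Sh2b3-/- cells and 332, 349, 326, 614 and 606 CPM in wild-type cells, where the first 3 values of each are from set C and the last 2 from set B. The groups overlapped, and the difference was 0.49 ± 0.14 (edgeR adjusted p = 0.19). It was 0.74 ± 0.15 in set C alone, where it was called (adjusted p = 0.045), and 0.12 ± 0.17 in set B alone. In set C the summed NK cell markers were at 92.7, 100 and 121 CPM in Sh2b3-/- libraries and 48.9, 56 and 60.2 CPM in wild-type libraries, without overlap. Eomes, which activated CD8 T cells also express, made up 86.8, 97.8 and 117 CPM of these sums in Sh2b3-/- cells and 45.9, 51.3 and 54.8 CPM in wild-type cells, while in the 24 h libraries without anti-IL-2 Klra8 was at 0 and Ncr1 reached 0.484 CPM at most. The part of these markers in the result was not tested. Scd2 showed 0.77 ± 0.20 in set C and 0.32 ± 0.21 in set B, neither called. Without Sh2b3-/- replicate 5 both Fasn and Scd2 were called, at 0.63 ± 0.11 and 0.73 ± 0.15.

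The difference between the time responses, Sh2b3-/- minus wild-type, was called for no member at 2, 6 or 24 h (0%, 0% and 0.14% of all genes called by edgeR, 10, 0 and 6 members at an unadjusted p under 0.05, 0 by DESeq2 at each time). Of the 33 estimates 28, 24 and 25 were above 0, with medians of 0.21, 0.17 and 0.18, against 0.01, 0.03 and 0.02 for all genes. All 3 share the 0 h libraries, in which most members were lower in Sh2b3-/- cells. Cyp51 gave 0.63 ± 0.26, 0.36 ± 0.26 and 0.42 ± 0.25, and Fasn 0.03 ± 0.20, 0.02 ± 0.20 and 0.51 ± 0.20.

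**Figure D3:**
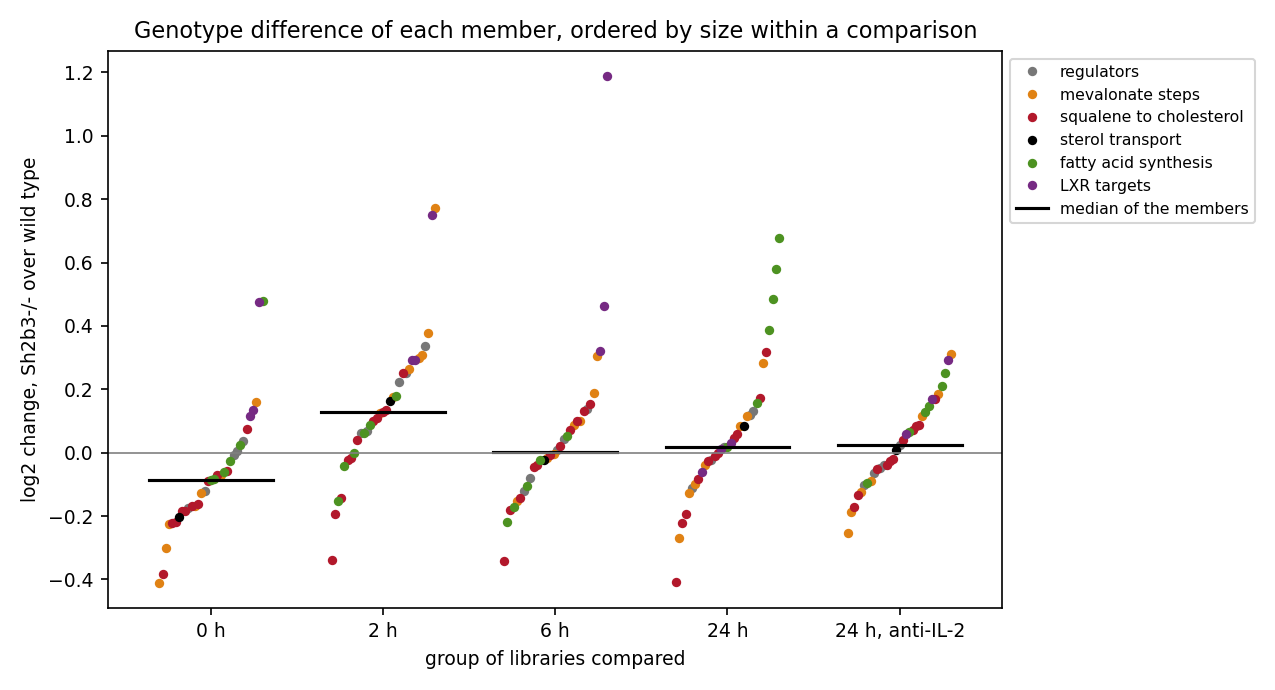
Log2 change, Sh2b3-/- over wild type, of each tested member in 5 comparisons, 0, 2, 6 and 24 h without and 24 h with anti-IL-2; each point is a gene coloured by role, and the bar is the median of the members. Most points are below 0 at 0 h and above 0 at 2 h, the 6 fatty acid genes are all above 0 at 24 h, and none of the points had an adjusted p under 0.05.

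The Sh2b3-/- libraries at 2 and 6 h were not alike. In replicate 3 the 18 mevalonate and sterol enzymes were high for their group (median deviation from the group mean 0.31 log2 units at 2 h and 0.31 at 6 h, with 16 and 13 of 18 above the mean) and the LXR targets were low (−0.49 and −0.75). Replicate 5 showed the reverse, with enzymes at −0.20 and −0.26 (2 of 18 above the mean at each time) and LXR targets at 0.52 and 0.85. The 2 and 6 h libraries of a replicate have library numbers 10 apart and were correlated, so the 2 times are not independent. The 0 h library numbered to match replicate 5 had enzymes at −0.16 (4 of 18 above the mean) and LXR targets at 0.23. That numbered to match replicate 3 had −0.07 and −0.002. No wild-type library at 2 or 6 h had enzymes and LXR targets as far apart. The sum of the erythroid marker list was 81.3 and 66.1 CPM in Sh2b3-/- replicate 5 at 2 and 6 h, and 7.49 to 22.2 and 10.3 to 18.5 CPM in the other 4 Sh2b3-/- libraries. The NK cell list was highest in replicate 3, at 54.3 and 108 CPM, and lowest in replicate 5, at 12.9 and 23.2 CPM, where the other 3 had 33.1 to 35.3 and 34.5 to 42.6 CPM. Most of this list was Eomes, which activated CD8 T cells also express and which averaged 29.0 CPM at 2 h and 44.1 CPM at 6 h in Sh2b3-/- cells. The CD8 T cell list was also highest in replicate 3, at 3506 and 3156 CPM. In wild-type cells the lowest NK cell sum at 2 h, 21.4 CPM in replicate 5, went with LXR targets at 0.35, and the lowest at 6 h, 28.7 CPM in replicate 3, with −0.28. The part of these markers in the result was not tested. Wild-type replicate 1 at 6 h had 67.1 CPM of the erythroid list with enzymes at 0.20 and LXR targets at 0.13.

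**Figure D4:**
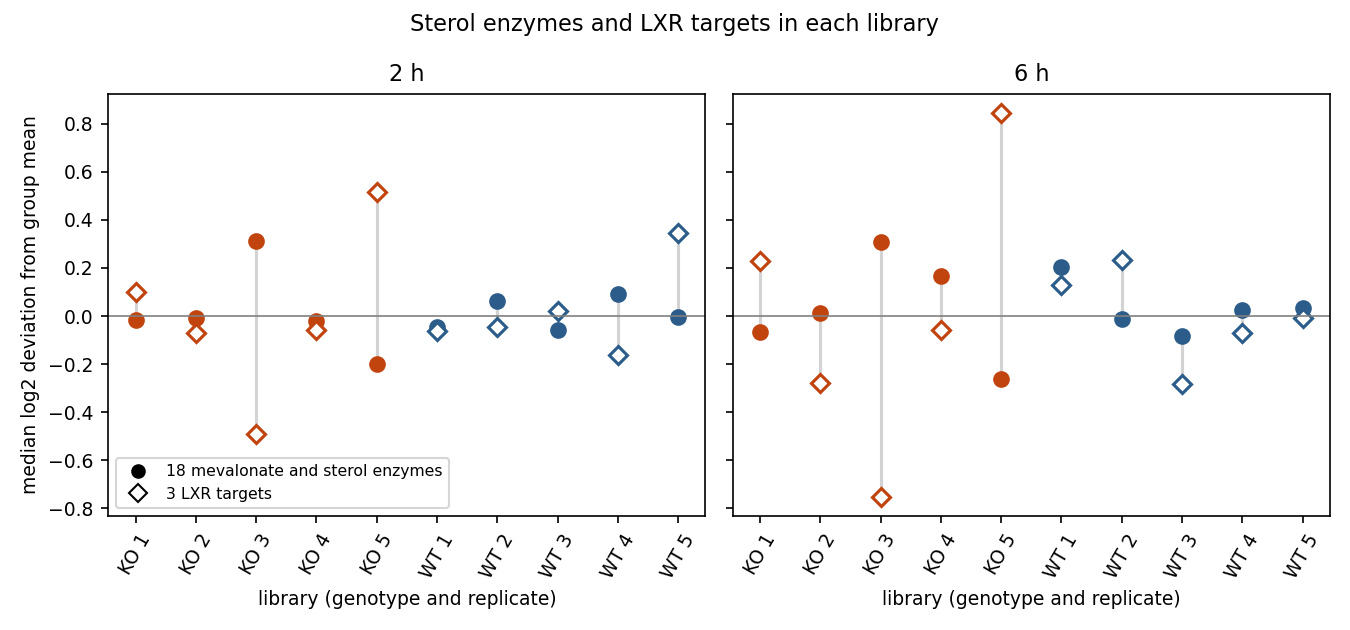
Median log2 deviation from the group mean of the 18 mevalonate and sterol enzymes (filled circles) and of the 3 LXR targets (open diamonds) in each Sh2b3-/- and wild-type library at 2 and 6 h. The 2 marks are farthest apart, in opposite order, in Sh2b3-/- replicates 3 and 5 at both times, which are not independent because the library numbers match.

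With IL-2 blocked during the 24 h of stimulation, the fatty acid genes Acaca, Fasn and Acly were higher and Mylip lower in wild-type cells, and no mevalonate or sterol enzyme was called by edgeR in either genotype. In Sh2b3-/- cells no member was called (2.81% of all genes higher and 2.81% lower by edgeR, 5.63% in all, 10 members at an unadjusted p under 0.05, and Idi1, Acaca and Mylip called by DESeq2). In wild-type cells 3 members were called higher and 1 lower (2.77% of all genes called higher and 3.16% lower, 5.93% in all). The median member changed by −0.03 in Sh2b3-/- cells and −0.01 in wild-type cells, against 0.01 and 0.02 over all genes. All of these values compare set D with sets B and C.

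Acaca was at 211, 191, 205 and 204 CPM with anti-IL-2 and 143, 84.8, 145, 172 and 122 CPM without it in Sh2b3-/- cells. In wild-type cells it was at 210.4, 183, 196 and 186 CPM with anti-IL-2 and 68.1, 102, 70.4, 158 and 128 CPM without. The groups did not overlap in either genotype. The change was 0.61 ± 0.20 in Sh2b3-/- cells (edgeR adjusted p = 0.088) and 0.88 ± 0.20 in wild-type cells (adjusted p = 0.015). Against set B alone it was 0.45 ± 0.11 and 0.45 ± 0.11, and against set C alone 0.70 ± 0.15 and 1.25 ± 0.15, called in all 4 cases.

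Fasn had 800.1, 709, 808 and 734 CPM with anti-IL-2 and 660.4, 437, 589, 814 and 520.4 CPM without it in Sh2b3-/- cells, which overlapped. Wild-type cells had 722, 653, 686 and 691 CPM with anti-IL-2 and 332, 349, 326, 614 and 606 CPM without, and did not overlap. The change was 0.34 ± 0.19 in Sh2b3-/- cells (edgeR adjusted p = 0.33) and 0.63 ± 0.18 in wild-type cells (adjusted p = 0.0499). The wild-type change was 0.18 ± 0.12 against set B, whose 2 libraries averaged 610.1 CPM, and 1.01 ± 0.10 against set C, whose 3 averaged 336 CPM. The set C value was called and the set B value was not.

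Acly was at 348, 316, 361 and 327 CPM with anti-IL-2 and 339, 289.6, 346, 353 and 289 CPM without it in Sh2b3-/- cells, a difference of 0.07 ± 0.09 that was not called. In wild-type cells Acly was at 365, 363, 356 and 359 CPM with anti-IL-2 and 302, 282, 239, 305 and 315 CPM without, with no overlap and a change of 0.32 ± 0.09 (edgeR adjusted p = 0.034). It was 0.23 ± 0.09 against set B alone, where it was not called (adjusted p = 0.15), and 0.37 ± 0.09 against set C alone, where it was. Mylip fell in wild-type cells, to 15.1, 13.6, 9.74 and 12.1 CPM with anti-IL-2, against 46, 42.2, 44.4, 19.2 and 14.6 CPM without (−1.40 ± 0.34, adjusted p = 0.022). Its values in Sh2b3-/- cells were 12.8, 18.5, 14.3 and 16.3 CPM with anti-IL-2 and 24.9, 52.4, 30.4, 16.3 and 26.3 CPM without (−0.95 ± 0.34, adjusted p = 0.11). The 2 low wild-type values without anti-IL-2 are those of set B, and against that set alone the change was −0.41 ± 0.22 (adjusted p = 0.34), against set C alone −1.83 ± 0.21. Without any 1 of the 4 wild-type anti-IL-2 libraries, 0 or 1 of these 4 calls was left, and the 1 left was Acaca.

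**Figure D5:**
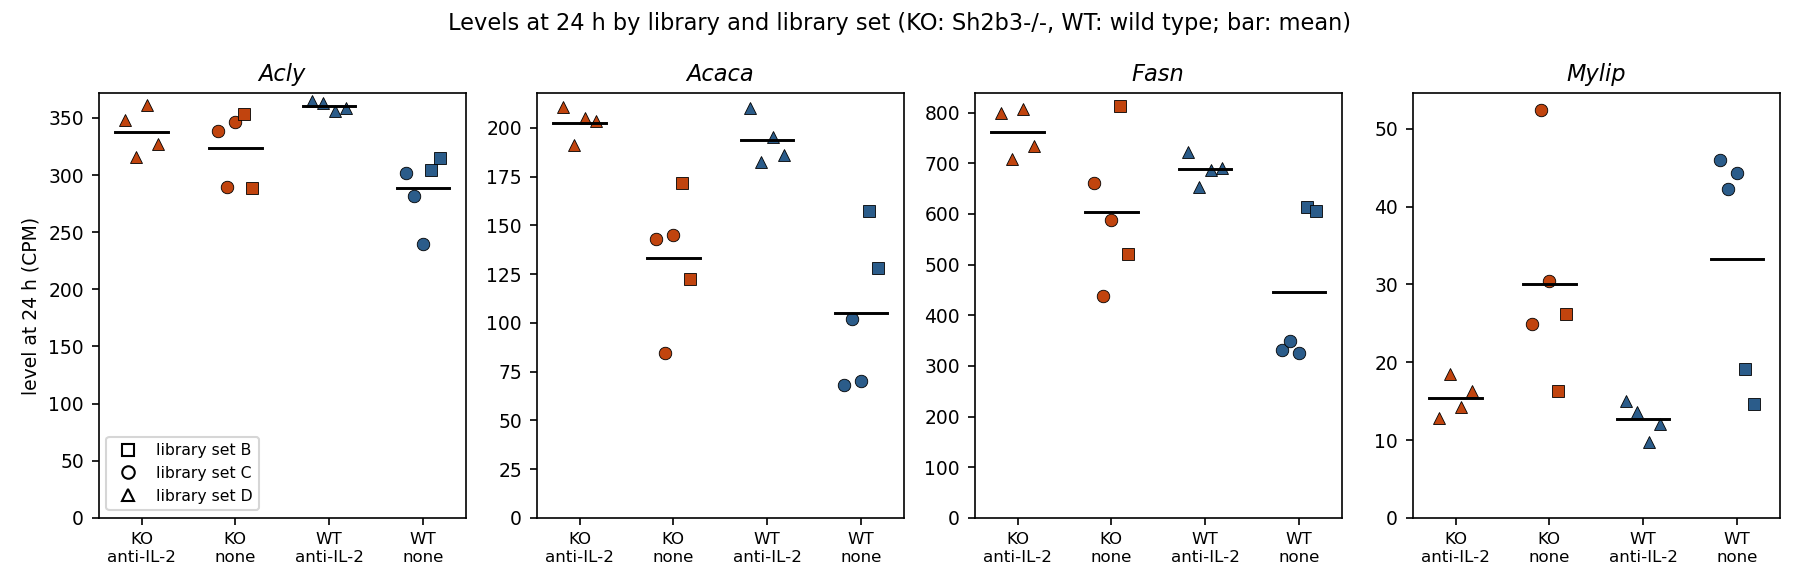
CPM at 24 h of Acly, Acaca, Fasn and Mylip in Sh2b3-/- (KO) and wild-type (WT) libraries with anti-IL-2 and without; marker shape gives the library set and the bar is the mean. Without anti-IL-2 the wild-type libraries of set B (squares) sit nearer to the anti-IL-2 libraries than those of set C (circles) for Acaca, Fasn and Mylip.

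The sterol genes named above were not called by edgeR with anti-IL-2. Cyp51 averaged 141 ± 15.8 CPM with anti-IL-2 and 139 ± 29.9 CPM without it in Sh2b3-/- cells, and 143 ± 15.2 and 139 ± 23.2 CPM in wild-type cells (SD, n = 4 with and 5 without). Hmgcs1 changed by −0.02 ± 0.14 in Sh2b3-/- cells and 0.03 ± 0.14 in wild-type cells, and Sqle by −0.05 ± 0.19 and 0.13 ± 0.19, none called. Idi1 was at 92.9, 68.3, 76.3 and 103 CPM with anti-IL-2 and 66.6, 40.6, 46.3, 72.6 and 53.1 CPM without it in Sh2b3-/- cells (0.61 ± 0.20, edgeR adjusted p = 0.078). Ebp in both genotypes, Elovl6 in wild-type cells, and Scap and Mvd in Sh2b3-/- cells had all anti-IL-2 libraries below all others, without a call by edgeR. In all, the groups did not overlap for 4 members in Sh2b3-/- cells and 5 in wild-type cells. The share of all genes without overlap was not computed, so no excess can be read from these counts.

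Of the 54 further genes 48 were tested, and 2 were called lower with anti-IL-2 in Sh2b3-/- cells and 4 in wild-type cells, with none higher, against 2.81% and 3.16% of all genes called lower. Rxra, the partner receptor of LXR, was called lower in both, at −1.14 ± 0.24 in Sh2b3-/- cells and −0.82 ± 0.23 in wild-type cells (edgeR adjusted p = 0.0057 and 0.04). Npc2, which hands cholesterol out of lysosomes, was the other in Sh2b3-/- cells (−0.58 ± 0.15). The phosphodiesterase gene Smpdl3a, whose human counterpart responds to LXR, (−1.64 ± 0.33), the elongase Elovl5 (−0.71 ± 0.20) and the sterol reductase and lamin receptor Lbr (−0.50 ± 0.14) were the others in wild-type cells.

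The change with anti-IL-2 was not called different between genotypes for any of the 33 members or of the 14778 genes tested (0% called by edgeR, 1 member at an unadjusted p under 0.05, 0 by DESeq2). The largest departure was that of Mvd, at −0.54 ± 0.18. With anti-IL-2 Mvd was at 20.1, 19.5, 17.4 and 16.7 CPM in Sh2b3-/- cells and 21.4, 24, 21.1 and 21.4 CPM in wild-type cells, the only member without overlap between genotypes there (−0.25 ± 0.13, adjusted p = 0.56); without it the values were 23.5, 24.7, 22.8, 26 and 21.5 CPM and 18.6, 15.4, 19.7, 23.3 and 20.01 CPM. It was singled out after its values were seen, and overlap was not computed for all genes.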

How the data were processed

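The authors deposited 1 table of raw read counts per Ensembl gene for 60 libraries of polyA RNA from CD8 T cells. Per the submitters' processing notes, the tools named were FastQC 0.119.9, STAR 2.7.9a, SAMtools, Picard 2.42.2 and featureCounts 2.0.1, with build GRCm39. Per the labels, RNA was extracted with a Qiagen RNeasy or a Zymo Quick-RNA Microprep kit, and which library had which kit is not given in the sources used here, nor is the strand setting of the counting. Reads of overlapping or near-identical genes may therefore be split between them.

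Groups, times and doses were taken from the labels, and replicate numbers only name libraries. Library numbers of the titles run 10 apart between times in set A, and the deviations of libraries so matched were checked. Each of the 5 pairs correlated by over 0.1 between 2 and 6 h (0.22 to 0.74) and between 0 and 2 h (0.11 to 0.59) in Sh2b3-/- cells, taken as pairs from the data alone, and not in the other combinations (−0.13 to 0.45). Between 0 and 2 h, 3 of 5 Sh2b3-/- libraries and 4 of 5 wild-type libraries matched best with their own number. Between 2 and 6 h it was 5 and 2, and between 0 and 6 h 2 and 1. By this measure the wild-type libraries at 0 and 2 h were not less paired. Library sets were defined by runs of the library numbers in the labels' titles. The 33 members, the 54 further genes, the marker lists and the tests were chosen with earlier results of these data known. Of 55414 genes, 21145 had no read in any library. No pair of libraries agreed within sampling noise (lowest chi-square per degree of freedom 6.88).

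Counts were scaled by TMM and tested with edgeR 4.0.16 (R 4.3.3, limma 3.58.1) by the robust quasi-likelihood F test after filterByExpr with a minimum count of 10. P-values were adjusted by Benjamini and Hochberg over all genes tested, with calls under 0.05. Library set was a covariate at 0 h, at 24 h and across times. Anti-IL-2 was tested without it, since set D holds all those libraries. The procedure was tested on simulated counts first. Counting depth limits Scd1 and Fdps. DESeq2 1.42.0, its size factors, no filter on low counts, a fold threshold of 1.5, leaving out libraries, single library sets and a block by library number were alternatives. Using only set B or set C with anti-IL-2 or for 24 h against 0 h was chosen after seeing the data.

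Values of every library are given for members called with anti-IL-2 and, in the wild-type time course, for the 4 largest rises and 4 largest falls. Of the further genes the 4 with the largest changes among those called are named, at 2, 6 and 24 h against 0 h and with anti-IL-2. Promoter sequences are from RefSeq on GRCm38.p6. No coordinates were converted between builds.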

Additional observations from a re-analysis of the deposited data

Results flagged for a closer look

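In groups of 4 or 5 libraries, 11 members were examined over 88 groups for a library set far from the others relative to the group's range, and 4 were found. Chance gives about 1 in 20 groups. Hmgcs1 in Sh2b3-/- replicate 3 at 6 h was at 103.7 CPM, where the other 4 libraries had 54.2 to 67.1 CPM. Mylip in Sh2b3-/- replicate 5 at 2 h was at 98.3 CPM, where the others had 70.3 to 76.4 CPM. Abcg1 in wild-type replicate 5 at 2 h was at 160.8 CPM, where the others had 109 to 118 CPM. Abca1 in wild-type replicate 1 at 24 h was at 9.86 CPM, where the others had 1.87 to 3.91 CPM. The Sh2b3-/- libraries among these are those in which the 18 enzymes and the LXR targets deviated in opposite directions. Hmgcs1 is among those enzymes and Mylip among those targets, so the 2 observations are not separate. Wild-type replicate 1 at 24 h had enzymes at −0.17 and LXR targets at 0.60, and wild-type replicate 5 at 2 h had −0.003 and 0.35.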

How the results depend on the processing

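Of the values for single genes, 9847 stayed called in the same direction or stayed uncalled across the alternatives run, 166 gained a call and 230 lost one. The change of Scd1 at 24 h against 0 h in wild-type cells turned round: it was 0.05 with all libraries (not called), −2.10 without wild-type replicate 1 at 24 h (called lower) and up to 0.40 without another 24 h library (replicate 4). Replicate 1 was at 7.39 CPM and the other 4 at 0 to 1.14 CPM. The cause was not tested. Members called between genotypes, 0 as reported by edgeR, numbered 1 at 0 h, 1 at 2 h and 1 at 24 h with DESeq2 (Cyp51, Mvk and Fasn), 1 in set B alone at 0 h, 1 in set C alone at 24 h, and 2 at 0 h and 3 at 24 h with no filter on low counts. Leaving out 1 library gave 0 to 2 at 24 h (2 without Sh2b3-/- replicate 5), with 8 to 361 of all genes called.

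With anti-IL-2 the count in Sh2b3-/- cells, 0 as reported, was 3 with DESeq2, 2 against set B alone and 10 against set C alone, and 0 to 2 without 1 library (2 without Sh2b3-/- replicate 4 at 24 h). In wild-type cells the count of 4 became 1 against set B alone, 10 against set C alone and 0 with no filter, and ran from 0 to 6 without 1 library (6 without replicate 4 or 5 of the 24 h libraries, 1 or 2 without replicate 1, 2 or 3). Without 1 library, 446 to 946 of all genes were called in Sh2b3-/- cells and 384 to 1325 in wild-type cells. Shares of all genes in the other settings of this section are not given, so a larger count need not be particular to the members. For 6 h against 2 h in wild-type cells 12 members passed with a fold threshold of 1.5, against 19. The genotype difference in time response, 0 as reported, was called for 1, 1 and 2 members at 2, 6 and 24 h with no filter. The other counts stayed within 1.5 times.

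With a replicate block by library number in set A, calls against 0 h at 2 and 6 h and at 6 h against 2 h were 28, 22 and 24 in Sh2b3-/- cells (24, 22 and 16 without it) and 25, 22 and 20 in wild-type cells (20, 22 and 19 without it). In wild-type cells the labels do not say that numbers pair libraries, and not every pair was correlated.

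Depth and library set limit the results. Mvk had 32 counts in its lowest library, and Scd1 and Fdps fewer. Calls near the threshold were fragile, among them Elovl6 and Tm7sf2 at 24 h in wild-type cells.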

Other observations

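The spread between libraries of the members was uneven between genotypes. At 0 h the median coefficient of variation over the 33 members was 17.6% in Sh2b3-/- cells and 16.0% in wild-type cells, and it was larger in Sh2b3-/- cells for 18 of 33. At 2 h the medians were 18.1% and 13.8% (larger in Sh2b3-/- cells for 21) and at 6 h 22.6% and 13.5% (23 larger). At 24 h they were 21.6% and 17.8% without anti-IL-2 (15 larger), while with it they were 9.72% and 9.37% (19 larger). For the 3 LXR targets the median at 0 h was 13.3% in Sh2b3-/- cells, against 13.4% in wild-type cells. After 2 h it was 25.7%, against 15.5% in wild-type cells, after 6 h 43.1%, against 13.7%, and after 24 h without anti-IL-2 44.95%, against 45.41%. The 0 h groups pool sets A, B and C, and the 24 h groups without anti-IL-2 pool sets B and C. Every other group comes from a single set. Differences between sets add to the spread of the pooled groups, so the spread cannot be compared between times or with and without anti-IL-2. The differences in spread between genotypes were not tested.

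At 24 h without anti-IL-2 the wild-type libraries differed by set in the same 2 gene groups. In the 2 libraries of set B the 18 enzymes deviated from the group mean by 0.15 and 0.23 log2 units and the LXR targets by −0.62 and −0.40. In the 3 libraries of set C the enzymes deviated by −0.17, −0.11 and 0.02 and the LXR targets by 0.60, 0.39 and 0.38. The summed CD4 or regulatory T cell markers were at 75.5 and 79.3 CPM in set B and 32.4, 17.9 and 34 CPM in set C. Most of this sum was Ctla4, which averaged 37.4 CPM in these wild-type libraries and 7.03 CPM in unstimulated ones. Cd40lg averaged 6.03 CPM, Zbtb7b 2.08, Foxp3 1.48 and Cd4 0.804 at 24 h. These are means over both sets. The CD8 T cell markers were lower in set B, at 2489 and 2597 CPM, than in set C, at 3384 to 3860 CPM, as were the NK cell markers (30.2 and 36.3 CPM against 48.9 to 60.2 CPM), and the B cell and erythroid sums did not overlap between the sets either. Most of the NK cell sum was Eomes, which averaged 38.5 CPM over both sets in these wild-type libraries. In Sh2b3-/- cells the CD4 or regulatory T cell markers were at 66.0 and 67.5 CPM in set B and 26.6 to 48.4 CPM in set C, while the LXR targets of set B deviated by −0.48 and 0.11. The part of these markers in the difference was not tested.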
